A study of Mus musculus with 44 samples.

Results

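The transcription factors that give stomach and intestine their identity were followed in the gastric corpus of mice that lack, or carry, the beta subunit of the gastric proton pump. They are 10 genes, chosen by name: Barx1, Sox2, Gata4, Gata6, Foxa1, Foxa2, Sox9, Cdx1, Cdx2 and Hnf4a. The estimated counts held 31517 genes, and the 10 were taken from these by symbol. Barx1 was listed because an earlier look at these data showed it higher in KO mice given NTZ. Its difference between the KO groups is therefore given as a description without a test.

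The samples were pieces of gastric corpus from mice labelled with a BalbC background and an age of 13 months. WT/PEG mice were wild type and received the vehicle PEG, and WT/NTZ mice were wild type and received netazepide (NTZ, named YF in the labels), an antagonist of the gastrin receptor. KO/PEG and KO/NTZ mice lacked the H+/K+ATPase beta subunit (gene Atp4b) and received PEG or NTZ. There were 13 KO/PEG, 11 KO/NTZ, 11 WT/PEG and 9 WT/NTZ libraries, 44 in all, and the labels do not state that each came from its own mouse. A pair of WT/PEG libraries shares an animal number, and the number 110 occurs in both KO groups. The study describes fewer KO/PEG mice at its end than there are KO/PEG libraries here, so that some of these libraries may share a mouse or carry another group's label, which could not be resolved. In what follows, n counts libraries, and SDs and p-values measure the spread between libraries, which may be smaller than that between mice.

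In the embryo, the gut tube is divided into regions by transcription factors that persist in the adult epithelium. Sox2 marks the foregut and is kept in the adult stomach, whereas Cdx1 and Cdx2 specify intestine. Foxa1 and Foxa2 open chromatin in endoderm, Gata4 and Gata6 act in endodermal and glandular epithelium, and Hnf4a drives epithelial genes in liver, intestine and stomach. Sox9 marks progenitor and duct-like cells in several endodermal organs. Barx1 differs from the rest in that it is a factor of the stomach mesenchyme, where it favours stomach over intestinal fate by inducing secreted Wnt antagonists. Ectopic Cdx2 in the stomach is a hallmark of intestinal metaplasia.

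The total estimated count per library was between 6065084 and 21945124. Atp4b was between 2141 and 5761 CPM (estimated counts scaled to library size, with TMM factors) in the WT libraries. It was between 2.34 and 40.5 CPM in the KO libraries, so that every library matched the genotype of its label. The treatment labels, PEG or NTZ, were not checked by this gene. Pgc and Atp4a, products of chief and parietal cells, were abundant in WT/PEG (161500 and 8103 CPM on average), as is typical of corpus. Genes with long transcripts were lower in the KO libraries. This was measured as a length slope, the change of a library's log2 CPM per doubling of transcript length relative to the WT/PEG mean. The slope lay between -0.19 and 0.08 in WT libraries, between -0.64 and -0.10 in KO/PEG and between -0.60 and -0.34 in KO/NTZ. The part of this gradient in the results was not tested beyond the alternatives given beside them. The summed CPM of 6 squamous forestomach markers had a median of 2.31 in WT/PEG and 21.6 in KO/PEG, and of 512 in WT/NTZ and 89.5 in KO/NTZ, so the amount of forestomach RNA also varied between libraries.

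Levels were first compared between the genes per transcript length, in TPM (reads per transcript length, scaled to the library). In WT/PEG, Gata4 was the most abundant of the 10, with 125.8 ± 15.3 TPM (SD, n = 11). Hnf4a (38.1 ± 6.22 TPM) and Foxa1 (36.6 ± 4.23 TPM) followed, and Hnf4a exceeded Foxa1 in 7 of the 11 libraries, so their order was not separated from the spread. The same held for Gata6 (29.4 ± 4.06 TPM) and Foxa2 (27.5 ± 2.89 TPM), and for Barx1 (13.96 ± 3.17 TPM) and Sox9 (12.6 ± 2.32 TPM). Sox2 was the lowest gene with a clear signal, at 4.18 ± 0.764 TPM, and was below Sox9 in all 11 libraries. Cdx1 and Cdx2 were close to 0.

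**Figure D1:**
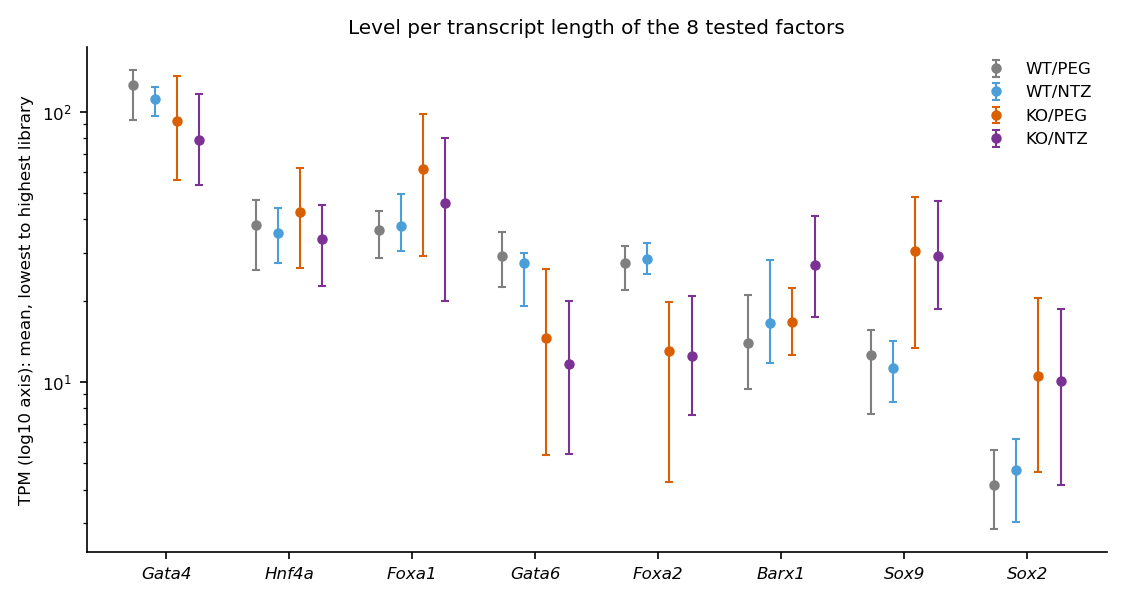
Level of the 8 tested factors per transcript length in TPM on a log10 axis, for the 4 groups. Points are group means and bars reach from the lowest to the highest library. Gata4 is the most abundant factor in each group, Foxa2 and Gata6 are lower and Sox9 and Sox2 higher in both KO groups, and Barx1 is highest in KO/NTZ.

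The order was different in KO/PEG. Gata4 remained first at 92.7 ± 20.99 TPM (n = 13), and Foxa1 came second at 61.4 ± 26.02 TPM. Sox9, at 30.6 ± 11.5 TPM, stood next to Hnf4a in rank and exceeded Barx1 in 12 of 13 libraries. Gata6 (14.5 ± 6.44 TPM), Foxa2 (13.0 ± 4.45 TPM) and Sox2 (10.6 ± 6.17 TPM) had means close to each other, and Foxa2 exceeded Sox2 in 7 of the 13 libraries. In KO/NTZ the mean of Barx1 was 27.2 ± 6.89 TPM (n = 11), and Barx1 lay above Foxa2 in all 11 libraries.

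The comparison of KO/PEG with WT/PEG asks how loss of the proton pump subunit, with its lack of acid and high gastrin, relates to these factors. The epithelial factors went in different directions. Sox2 and Sox9 were about 2-fold higher and Foxa1 was moderately higher, whereas Foxa2 and Gata6 were at 0.433 and 0.408 times the WT/PEG level and Gata4 was moderately lower. Hnf4a and Barx1 did not pass the test, and Cdx1 and Cdx2 were too low to be tested. Among the 8 genes tested, 6 were called by edgeR's quasi-likelihood test at an adjusted p of 0.05, 3 higher and 3 lower. Of the 14911 genes tested, 74.5% were called, 37.4% higher and 37.1% lower, so this count of members is close to the background. The same shares apply to each gene list described for this comparison. Where a gene is said not to overlap between groups, the share of all genes without overlap is not given here.

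**Figure D2:**
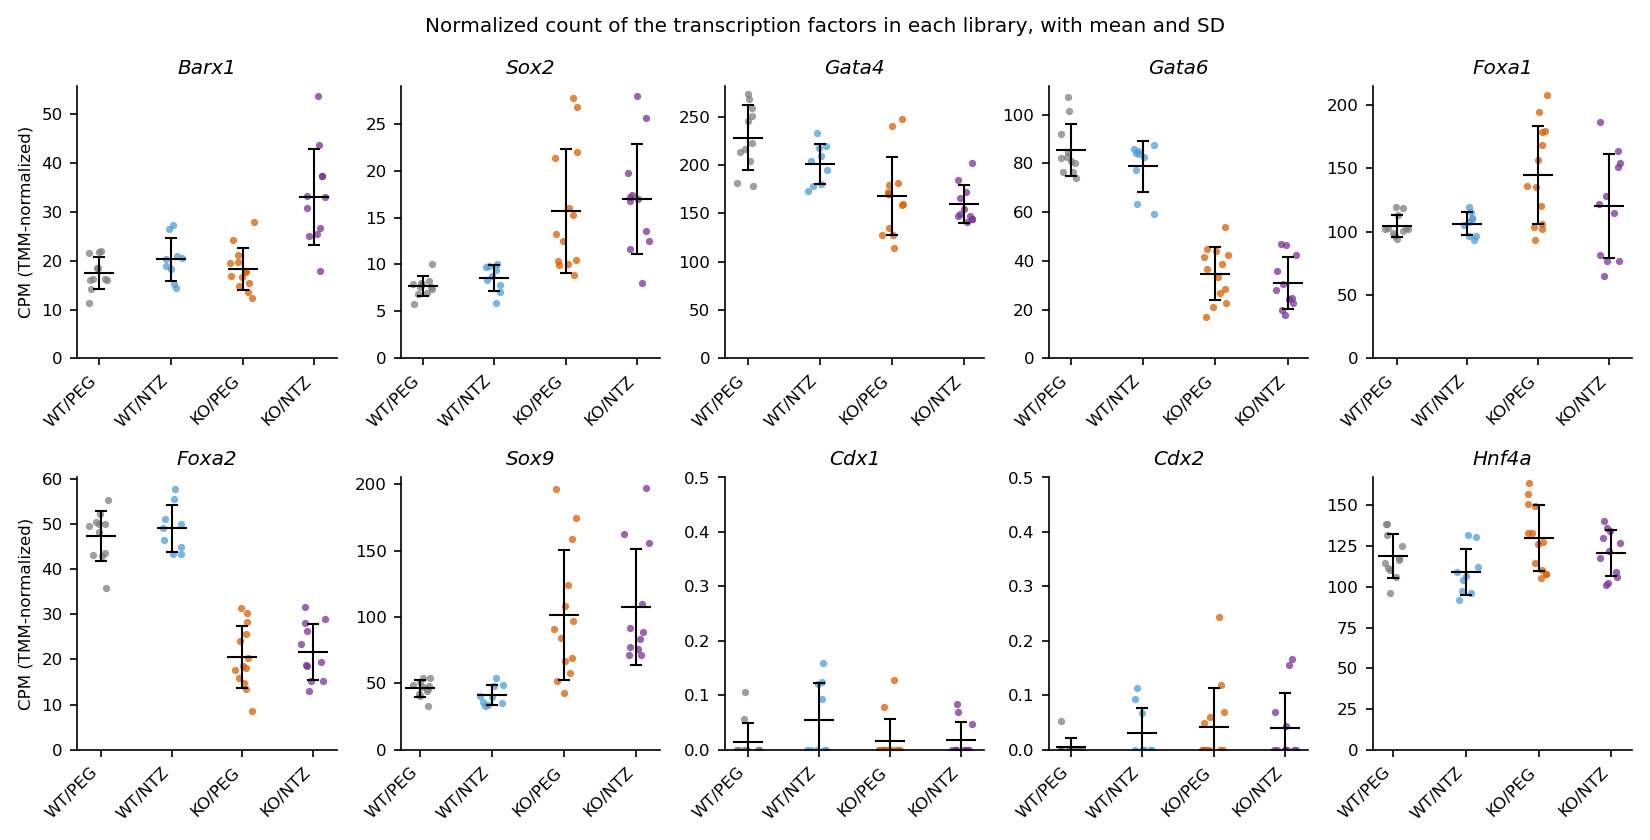
Normalized count of each of the 10 factors (CPM, axis from 0), 1 point per library, with the mean and SD of each group as black bars. Foxa2 and Gata6 do not overlap between genotypes, Sox9 and Sox2 spread widely in KO mice, Barx1 is highest in KO/NTZ, and Cdx1 and Cdx2 stay under 0.25 CPM in every library.

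Gata6, a zinc finger factor of endodermal and glandular epithelium, was between 74.1 and 107 CPM in WT/PEG (median 82.3) and between 17.02 and 53.8 CPM in KO/PEG (median 36.7). No KO/PEG library reached the lowest WT/PEG library. Gata6 thus fell by 1.29 on the log2 scale (SE 0.15, adjusted p = 9.4e-10 by edgeR). Gata6 was higher in the KO libraries with flatter slopes. Its Pearson r with the slope was 0.76 in KO/PEG (Spearman rho 0.73, adjusted permutation p = 0.00976 and 0.0155) and 0.91 in KO/NTZ (rho 0.85, adjusted permutation p = 0.0028 and 0.0119), of 16 such relations computed. Without the 2 libraries farthest from the median slope r was 0.90 and 0.86. With the slope as a covariate, its log2 fold change was -0.15 (adjusted p = 0.584), while it was -1.01 without the KO libraries whose slope lay below -0.5. The 2 genotypes hardly overlap in slope, so the covariate and the genotype share most of their variation and cannot be told apart well.

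Gata4, the paralog of Gata6, was between 178 and 274 CPM in WT/PEG (median 223) and between 115 and 247 CPM in KO/PEG (median 170). The ranges overlapped, but 9 of 13 KO/PEG libraries lay below every WT/PEG library. Its log2 fold change was -0.44 (SE 0.098, adjusted p = 0.000106). Over all the other fits its change was between -0.65 and -0.37, and it was called in each. The ratio of Gata4 to Gata6 TPM was 4.33 ± 0.644 in WT/PEG and 7.40 ± 2.77 in KO/PEG. It ranged from 3.40 to 5.59 in WT/PEG and from 3.36 to 12.5 in KO/PEG, so the groups overlapped. Another member of the family, Gata5, rose slightly (log2 fold change 0.35, SE 0.099, adjusted p = 0.00173).

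Foxa2, a forkhead pioneer factor of the endoderm, was between 35.9 and 55.3 CPM in WT/PEG (median 49.6) and between 8.62 and 31.3 CPM in KO/PEG (median 18.5). The 2 groups did not overlap. Foxa2 fell by 1.21 on the log2 scale (SE 0.15, adjusted p = 2.11e-09). Genes of similar transcript length had a median of 0.19 in the same comparison, and the fall of Foxa2 was between -1.37 and -1.08 over the other fits. Within the KO groups the relation of Foxa2 to the length slope did not pass (r = -0.014 and rho = -0.071 in KO/PEG, r = 0.29 and rho = 0.19 in KO/NTZ, adjusted permutation p from 0.427 to 0.966).

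Foxa1, its closest paralog, went the other way. Foxa1 was between 94.5 and 119 CPM in WT/PEG (median 102) and between 93.7 and 208 CPM in KO/PEG (median 136), and 9 of 13 KO/PEG libraries lay above every WT/PEG library. Its log2 fold change was 0.47 (SE 0.14, adjusted p = 0.00253), where genes of its length class (1 of 4 classes of equal size) had a median of -0.19. Foxa1 tended to be higher in the KO libraries with flatter slopes. In KO/PEG, Foxa1 had r = 0.84 and rho = 0.91 (adjusted permutation p = 0.0028 and 0.00176), and r = 0.93 without the 2 farthest libraries. Without the KO libraries whose slope lay below -0.5 its log2 fold change was 0.71, and with the slope as a covariate it was 1.42. The ratio of Foxa1 to Foxa2 TPM was 1.33 ± 0.137 in WT/PEG (n = 11) and 5.10 ± 2.33 in KO/PEG (n = 13), and the lowest KO/PEG ratio, 2.75, exceeded the highest WT/PEG ratio, 1.56. Foxa3, the remaining paralog, had 52.2 CPM in WT/PEG and 35.0 CPM in KO/PEG, a difference that missed the test (adjusted p = 0.118).

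Since the 2 forkhead paralogs moved apart, stretches of their promoters are shown next to those of Sox2, which moved with Foxa1, Barx1, the gene higher in KO/NTZ, and Cdx2, the gene that stayed at the limit of detection. Each stretch runs 5′ to 3′ on the strand of the gene, from 250 to 51 bases before the RefSeq start in GRCm38.p6. Foxa1 lies at chr12:57546162-57546361 (minus strand), Foxa2 at chr2:148045999-148046198 (minus), Sox2 at chr3:34649745-34649944 (plus), Barx1 at chr13:48662786-48662985 (plus) and Cdx2 at chr5:147307300-147307499 (minus). Capitals mark matches on either strand to one of 4 short motifs. The letters searched for forkhead factors were TGTTTAC. For SOX factors they were ACAAAG. For GATA factors the search used AGATAA. The motif of CDX factors was taken as TTTATG.
Foxa1: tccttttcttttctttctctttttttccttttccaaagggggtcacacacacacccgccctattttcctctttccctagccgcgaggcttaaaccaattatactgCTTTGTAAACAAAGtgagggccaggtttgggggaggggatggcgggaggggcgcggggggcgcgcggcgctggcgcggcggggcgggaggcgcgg
Foxa2: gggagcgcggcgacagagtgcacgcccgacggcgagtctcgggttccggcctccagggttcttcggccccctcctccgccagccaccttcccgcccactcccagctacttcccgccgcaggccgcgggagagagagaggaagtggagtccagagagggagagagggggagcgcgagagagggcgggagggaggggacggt
Sox2: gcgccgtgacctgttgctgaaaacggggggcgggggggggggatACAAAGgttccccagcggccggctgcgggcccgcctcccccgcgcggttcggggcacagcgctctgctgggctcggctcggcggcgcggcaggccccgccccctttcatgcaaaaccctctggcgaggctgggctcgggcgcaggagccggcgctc
Barx1: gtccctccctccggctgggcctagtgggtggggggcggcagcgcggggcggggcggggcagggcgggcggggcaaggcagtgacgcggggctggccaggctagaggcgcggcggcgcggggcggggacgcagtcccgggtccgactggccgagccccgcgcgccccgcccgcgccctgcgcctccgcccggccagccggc
Cdx2: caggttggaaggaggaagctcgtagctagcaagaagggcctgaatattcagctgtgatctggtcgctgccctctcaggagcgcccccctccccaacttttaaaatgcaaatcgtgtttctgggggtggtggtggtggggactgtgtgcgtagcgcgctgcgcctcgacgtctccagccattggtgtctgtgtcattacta

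The Foxa1 window held 1 FOX match and 2 SOX matches, which overlap in its run of capitals, the Sox2 window held 1 SOX match, and the other 3 windows held none. Among 32851 promoter windows of the same length, 2.58% held the FOX letters, 13.6% the SOX letters, 8.42% the GATA letters and 8.78% the CDX letters. The Barx1 window was 85% G and C, higher than 99.85% of all windows, and held 30 CpG dinucleotides. These values were 76% and 24 for Sox2, 72% and 20 for Foxa2, 59.5% and 16 for Foxa1, and 56.5% and 10 for Cdx2. The medians over all windows were 51.5% and 4. These are descriptions of the letters in the windows, and binding was not measured.

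Sox2, the foregut and stomach factor, was between 5.79 and 10.1 CPM in WT/PEG (median 7.60) and between 8.85 and 27.7 CPM in KO/PEG (median 13.2). Every KO/PEG library lay above the WT/PEG median, and 10 of 13 lay above every WT/PEG library. Sox2 rose by 1.04 on the log2 scale (SE 0.18, adjusted p = 2.31e-06), and the range over the other fits was 0.90 to 2.03. Like Foxa1, Sox2 tended to be higher in the KO libraries with flatter slopes. In KO/PEG, r was 0.78 and rho 0.77 (adjusted permutation p = 0.00976 and 0.0121). In KO/NTZ, r was 0.68 and rho 0.78 (adjusted permutation p = 0.0482 and 0.0155). Sox2 is also made by the squamous forestomach. Its log2 CPM rose with the summed squamous markers in WT/NTZ (r = 0.89, rho 0.85, n = 9, adjusted permutation p = 0.035 for r and 0.1 for rho, of 16 such relations), and r was 0.67 without the 2 farthest libraries. It did not pass in KO/PEG (r = -0.15, rho = -0.14, adjusted permutation p = 0.763 and 0.875). Sox2 lies within the longer noncoding gene Sox2ot on the same strand, and Sox2ot was not analysed here.

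Sox9, a factor of progenitor and duct-like cells, was between 33.2 and 54.4 CPM in WT/PEG (median 47.3) and between 43.1 and 197 CPM in KO/PEG (median 90.8). It was higher than every WT/PEG library in 11 of 13 KO/PEG libraries. Sox9 rose by 1.13 on the log2 scale (SE 0.20, adjusted p = 3.26e-06), although the genes of its length class, the longest, had a median of -0.55. Sox9 had the widest spread of the 8 factors in KO/PEG, with an SD of 0.69 on the log2 scale, where the median gene had 0.42. Its relation to the length slope did not pass (r = -0.53 and rho = -0.56 in KO/PEG, r = -0.60 and rho = -0.51 in KO/NTZ, adjusted permutation p from 0.0869 to 0.179). With the slope as a covariate its log2 fold change was 0.26 (adjusted p = 0.552), without the libraries below -0.5 it was 0.61, and after removal of the length trend it was 1.62.

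Wnt and progenitor genes often named with Sox9 did not move as a group. Of 9 tested, 4 were higher and 3 lower, with a median log2 fold change of -0.37 against -0.0048 over all genes. Prom1 (2.28, SE 0.14, adjusted p = 6.86e-18), the secreted Wnt inhibitor Notum (2.85, SE 0.38, adjusted p = 1.47e-08) and Ascl2 (2.14, SE 0.32, adjusted p = 1.35e-07) rose. Notum and Ascl2 were low in WT/PEG, at 0.298 and 0.417 CPM on average. There, 3 counts correspond to between 0.161 and 0.407 CPM, so the size of these 2 changes is uncertain. Lrig1 fell by 0.87 on the log2 scale (SE 0.17, adjusted p = 1.6e-05). Lgr5, the receptor that marks intestinal and antral stem cells, did not pass the test (-0.53, adjusted p = 0.271).

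Hnf4a, the nuclear receptor of gut epithelium, was between 96.4 and 139 CPM in WT/PEG (median 116.7) and between 105.5 and 163.5 CPM in KO/PEG (median 127), and the groups overlapped. Its log2 fold change was 0.13 (SE 0.080, 95% interval -0.034 to 0.29, adjusted p = 0.147). Genes of its length class had a median of -0.55, and after removal of the length trend Hnf4a was higher by 0.56 (adjusted p = 1.34e-07). It was also called higher when only protein-coding transcripts were counted (0.19, adjusted p = 0.0194). Its relative Hnf4g, low in corpus, was 2.96 CPM in WT/PEG and 1.24 CPM in KO/PEG (adjusted p = 0.000614).

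Cdx1 and Cdx2, the intestinal master regulators, stayed at the limit of detection in all groups. Cdx2 had 0 counts in 10 of 11 WT/PEG, 6 of 9 WT/NTZ, 8 of 13 KO/PEG and 7 of 11 KO/NTZ libraries, and no library held more than 3 counts. Cdx1 had 0 counts in 9, 5, 11 and 8 libraries of these groups, with at most 2. The highest value was 0.245 CPM for Cdx2, in a KO/PEG library, and 0.159 CPM for Cdx1, in a WT/NTZ library. A floor of 3 counts corresponds to between 0.114 and 0.588 CPM depending on the library, and neither gene was above the floor of its own library in any of them, and no fold change is given. The floor covers counting error only.

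Genes that are known targets or companions of Cdx2 and Hnf4a in the intestine were examined as a list of 26, of which 16 were expressed enough to be tested. In KO/PEG against WT/PEG, 10 were higher, 4 lower and 2 not called, with a median log2 fold change of 1.15. Of all genes, 37.4% were called higher and 37.1% lower, with a median of -0.0048. By transcript length, the median of all genes went from 0.71 in the shortest class to -0.55 in the longest. The part of the length gradient in the changes of this list was not tested. The genes with the smallest p included Lgals4, which codes for a galectin of gut epithelium, higher from 88.0 to 709 CPM (log2 fold change 3.01, SE 0.21, adjusted p = 6.4e-16), and the brush border gene Vil1, from 12.1 to 84.9 CPM (2.81, SE 0.25, adjusted p = 1.06e-12). Dpp4 (2.47, SE 0.29, adjusted p = 1.17e-09) and the guanylin receptor gene Gucy2c (2.65, SE 0.36, adjusted p = 2.5e-08) rose as well. Tff3 (1.90, adjusted p = 9.55e-08) and Guca2a (2.13, adjusted p = 5.47e-06) also rose, from 0.9925 to 3.72 CPM and from 0.285 to 1.35 CPM. So did Fabp2 (1.11, adjusted p = 0.00411) and Fabp1 (0.73, adjusted p = 3.87e-05). The WT/PEG mean of Guca2a lies in the range of the 3-count floor there, 0.161 to 0.407 CPM. Several other products of intestinal cells stayed too low to be tested. Muc2, of goblet cells, was 0.287 CPM in WT/PEG and 0.331 CPM in KO/PEG. Alpi was 0.450 and 0.289 CPM, Cdh17 0.0811 and 0.112 CPM, and Sis 0.136 and 0.0110 CPM. The apolipoprotein genes Apoa1 (-0.63), Apoa4 (-0.50) and Apob (-1.28) fell (adjusted p = 0.00154, 0.00987 and 0.0116). In KO/NTZ against KO/PEG, Apoa4 was the 1 gene of the 16 that was called, 0.60 higher (SE 0.18, adjusted p = 0.0349). This count is close to the background, since 5.71% of all genes were called there.

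Barx1 was between 11.4 and 21.99 CPM in WT/PEG (median 16.3) and between 12.45 and 27.9 CPM in KO/PEG (median 17.7). The groups overlapped almost wholly. Its log2 fold change was 0.061 (SE 0.14, 95% interval -0.22 to 0.34, adjusted p = 0.698). Short transcripts such as that of Barx1 were mostly higher in KO/PEG, with a median of 0.71 in the shortest class. With the slope as a covariate, its log2 fold change was -0.77 (adjusted p = 0.00422), and after removal of the length trend it was -0.40 (adjusted p = 0.00276). Within KO/PEG it was higher in the libraries with steeper slopes (r = -0.66, rho -0.77, adjusted permutation p = 0.0357 and 0.0121, and r = -0.69 without the 2 farthest libraries).

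**Figure D3:**
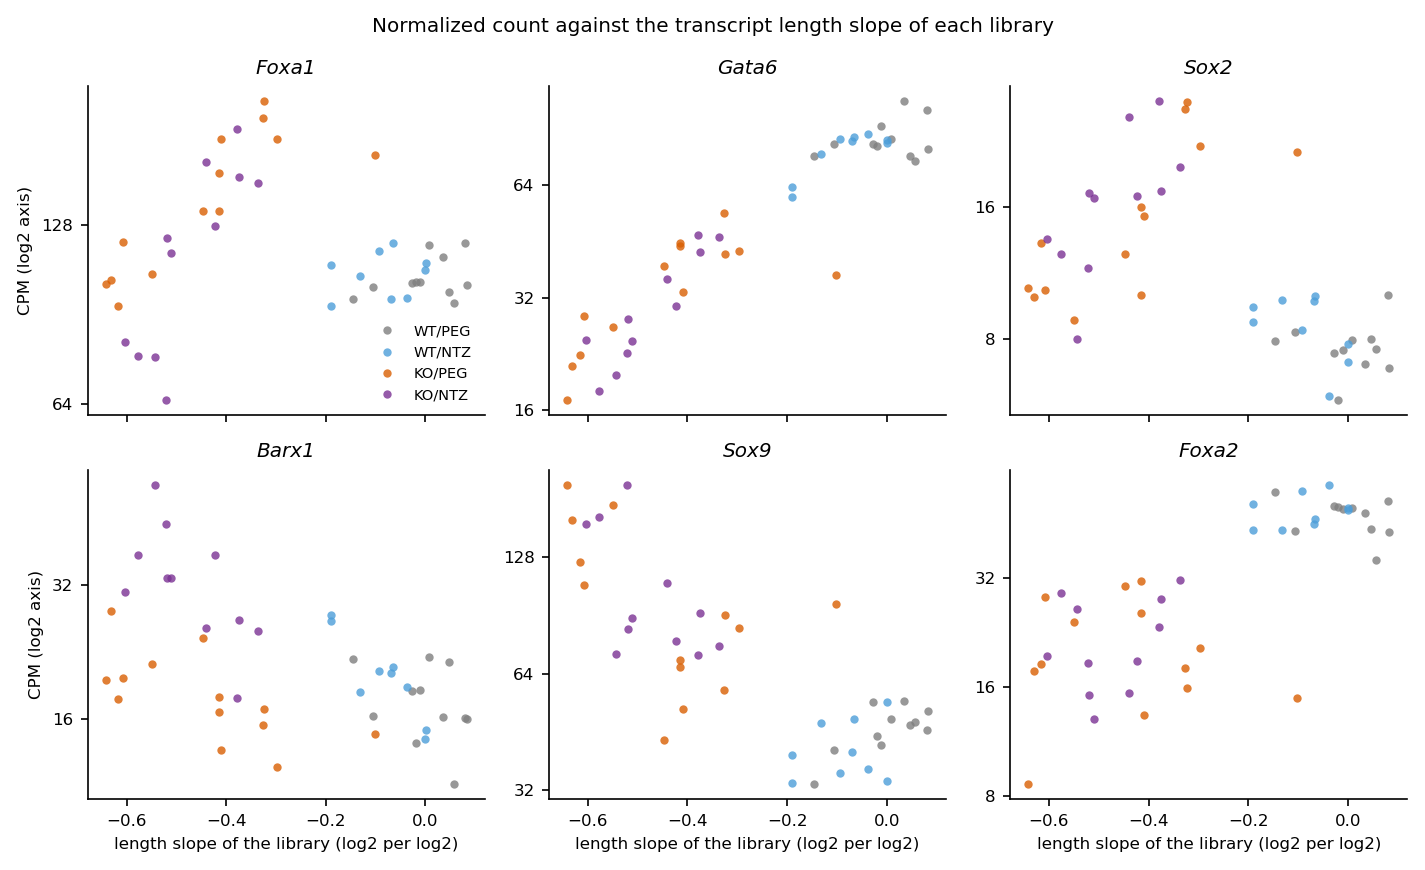
Normalized count (CPM, log2 axis) of 6 factors against the length slope of each library, 1 point per library and 1 colour per group. Foxa1 and Sox2 rise and Sox9 and Barx1 tend to fall as the slope flattens within KO groups, Gata6 rises with it in both KO groups, and Foxa2 is lower in every KO library than in every WT library. The genotypes share little of the slope range.

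Other gastric and endodermal transcription factors were also split in direction. Of 18 tested, 6 were higher and 7 lower in KO/PEG, with a median log2 fold change of 0.020. None was called in KO/NTZ against KO/PEG by edgeR, where 5.71% of all genes were called. The orphan nuclear receptor gene Esrrg, a parietal cell factor, fell from 255 to 34.8 CPM (log2 fold change -2.87, SE 0.31, adjusted p = 2.08e-10). Elf3, an epithelial ETS factor, rose from 226 to 574 CPM (1.34, SE 0.15, adjusted p = 2.87e-10). Spdef, a factor of mucous secretory cells, rose from 33.1 to 242 CPM (2.87, SE 0.37, adjusted p = 7.16e-09). Onecut2 rose from 0.320 to 1.60 CPM (2.33, SE 0.35, adjusted p = 1.56e-07). Its WT/PEG mean lies in the range of the 3-count floor there, 0.161 to 0.407 CPM. Among antral factors, Nkx6-3 was 2.35 ± 4.26 CPM in WT/PEG and 0.425 ± 1.05 CPM in KO/PEG (adjusted p = 0.0127). Its SDs exceeded its means. Pdx1 had 1.73 ± 1.44 and 3.003 ± 3.54 CPM (adjusted p = 0.238). The summed CPM of 6 antrum and duodenum markers ranged from 2.37 to 39.1 in WT/PEG and from 6.73 to 33.2 in KO/PEG. The part of antral RNA in the Nkx6-3 difference was not tested.

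Cell type markers moved beside these factors. In bulk tissue, fewer cells of a type and less RNA per cell cannot be told apart. The summed CPM of 5 chief cell markers had a median of 159200 in WT/PEG (range 88520 to 209400) and 10250 in KO/PEG (range 2473 to 36510). Most of this sum is Pgc, and 4 of the 5 fell, while Pga5 rose from 111.4 to 612 CPM (log2 fold change 2.46, adjusted p = 1.7e-06). The sum of 5 parietal cell markers had a median of 13690 in WT/PEG (10520 to 16910) and 5670 in KO/PEG (3549 to 9162). It includes the deleted gene Atp4b itself. Atp4a fell from 8103 to 4040 CPM (adjusted p = 1.6e-06), and Car2 rose slightly (log2 fold change 0.30, adjusted p = 0.0158). Of 12 differentiated gastric products, 7 fell and 4 rose. Pgc fell by 3.94 on the log2 scale (SE 0.41, adjusted p = 5.01e-11), while Gkn3 (7.42, SE 0.56, adjusted p = 1.19e-14) and the mucous neck product Tff2 (3.73, SE 0.42, adjusted p = 3.74e-10) rose. The part of these cell types in the changes of Foxa2, Gata4, Gata6, Sox2 and Sox9 was not tested.

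The same genotype contrast was available in mice given NTZ. Barx1 was left out of the tests here, since its KO/NTZ level was the reason to list it. Of the other 7 genes tested in KO/NTZ against WT/NTZ, 5 were called, 2 higher and 3 lower, and 72.4% of all genes were called. Foxa2 (-1.18, SE 0.16, adjusted p = 3.69e-08) and Gata6 (-1.34, SE 0.17, adjusted p = 5.3e-09) were lower. Neither overlapped between the groups, and the share of all genes without overlap is not given here either. Gata4 had a log2 fold change of -0.34 (SE 0.11, adjusted p = 0.00546). Sox9 was higher by 1.39 (SE 0.22, adjusted p = 6.88e-07), and its lowest KO/NTZ library, 71.3 CPM, lay above its highest WT/NTZ library, 53.9 CPM. Sox2 was higher by 0.997 (SE 0.20, adjusted p = 2.24e-05). Foxa1 was not called here (0.18, SE 0.15, adjusted p = 0.285), with 6 KO/NTZ libraries above and 4 below every WT/NTZ library. Some calls differed in the fits that use the length gradient, whose part in these values was not tested. With the slope as a covariate, Foxa1 was called higher (1.002, adjusted p = 3.73e-05), and Gata6 (-0.34, adjusted p = 0.188) and Sox9 (0.64, adjusted p = 0.128) were not called. Foxa1 was also called with the length trend removed (0.37, adjusted p = 0.00904) and without the KO libraries of slope below -0.5 (0.57, adjusted p = 3.71e-06). Barx1 was 0.705 higher as a description, 0.24 with the length trend removed and -0.014 with the slope as a covariate. This genotype comparison and that under PEG share no libraries.

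**Figure D4:**
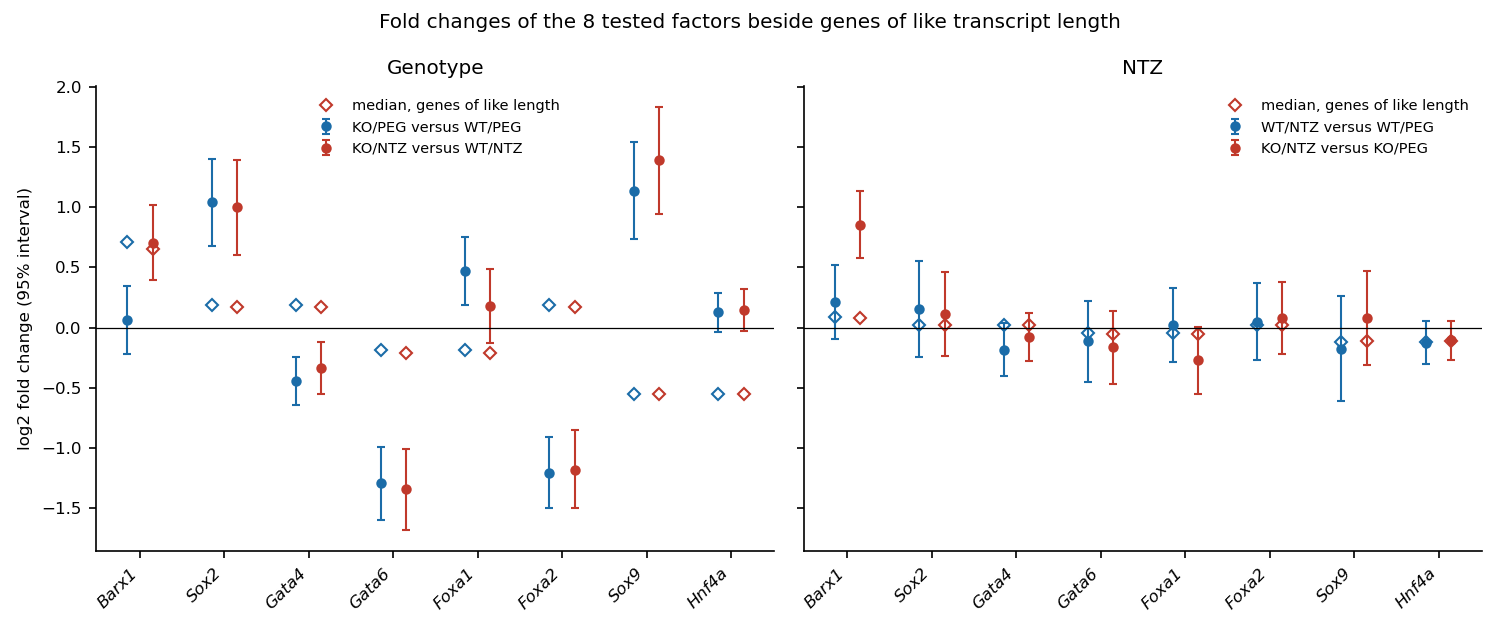
Log2 fold changes with 95% intervals for the 8 tested factors, by genotype on the left and by NTZ on the right, with open diamonds of the same colour for the median of all genes in the same class of transcript length. The genotype changes of Sox2, Sox9, Gata6 and Foxa2 have the same sign with either treatment. Barx1 is drawn with its value of 0.855 under NTZ in KO mice, the difference it was listed for, as a description.

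NTZ was compared with PEG within each genotype, which asks what remains of the change when the gastrin receptor is blocked. In KO mice, Barx1 was between 12.45 and 27.9 CPM under PEG (median 17.7) and between 17.85 and 53.6 CPM under NTZ (median 33.1). All 11 KO/NTZ libraries lay above the KO/PEG median and 7 lay above every KO/PEG library. Its log2 fold change was 0.855 (SE 0.14), 1.81-fold, and it was between 0.69 and 0.95 over the other fits, the lowest without the KO libraries of slope below -0.5. In WT mice, Barx1 was 17.5 ± 3.35 CPM under PEG (n = 11) and 20.3 ± 4.43 CPM under NTZ (n = 9), a log2 fold change of 0.21 (SE 0.15, 95% interval -0.097 to 0.52, adjusted p = 0.904). The NTZ effect in KO minus that in WT was 0.64 (SE 0.21) on the log2 scale and is not tested for the reason given. The study also lists Barx1 among the genes that differ most between the KO groups, but with the opposite sign. That sign is the one it prints for Hdc, which was lower under NTZ in the study and here. The reason for this difference was not resolved.

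The other 7 factors were not called in KO/NTZ against KO/PEG by edgeR, by DESeq2 or by limma. By edgeR, none had an unadjusted p under 0.05. Of all genes, 5.71% were called. The 95% intervals bound the changes: Sox2 0.11 (-0.24 to 0.46), Gata4 -0.075 (-0.27 to 0.125), Foxa2 0.079 (-0.22 to 0.38) and Sox9 0.080 (-0.31 to 0.47). Gata6 was at -0.165 (-0.47 to 0.14) and Hnf4a at -0.11 (-0.27 to 0.055). Foxa1 came closest, at -0.27 (-0.55 to 0.0084, adjusted p = 0.208), with 4 of 11 KO/NTZ libraries below every KO/PEG library. The genotype differences of Foxa2, Gata6, Sox2 and Sox9 in the fit without the slope, taken with the opposite sign, lie outside these intervals. With the slope as a covariate, the genotype differences of Gata6 and Sox9 were -0.15 and 0.26. That of Sox9, with the opposite sign, lies within its interval here.

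In WT mice, none of the 8 factors was called under NTZ by edgeR, DESeq2 or limma. By edgeR, none had an unadjusted p under 0.05, and 1.03% of all genes were called. The largest difference was that of Barx1, and Gata4 was at -0.18 (95% interval -0.40 to 0.035). How far the response to NTZ differed by genotype was also tested. None of the 7 factors was called by edgeR, DESeq2 or limma. By edgeR, 0 had an unadjusted p under 0.05, and 0.966% of all genes were called. Sox9 had a difference of 0.25 (SE 0.29) and Foxa1 of -0.29 (SE 0.20).

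Genes of the gastric mesenchyme were described beside Barx1. Of 15 tested members of a list of mesenchymal factors and Wnt antagonists, 10 were lower and 1 higher in KO/PEG against WT/PEG, with a median of -0.92. In KO/NTZ against KO/PEG 3 were higher, 0 lower and 12 not called, with a median of 0.22. Of all genes, 5.71% were called in that comparison, with a median of -0.017. Sfrp1, a secreted Wnt antagonist that Barx1 is known to induce in the embryonic stomach, was 50.5 CPM in WT/PEG and 25.02 CPM in KO/PEG (log2 fold change -1.01, SE 0.11, adjusted p = 2.22e-10). It was 35.6 CPM in KO/NTZ (log2 fold change 0.51 over KO/PEG, SE 0.11, adjusted p = 0.00346), and its NTZ effect in KO exceeded that in WT by 0.65 (SE 0.17, adjusted p = 0.0389). Osr1 (0.88, SE 0.26, adjusted p = 0.0387) and Hoxa5 (0.65, SE 0.19, adjusted p = 0.0278) were also higher under NTZ. Sfrp2 had 0.492 CPM in KO/PEG and 0.966 CPM in KO/NTZ (adjusted p = 0.152). The nuclear receptor gene Nr2f2 (-1.13, adjusted p = 2.73e-10) and the Hedgehog effector gene Gli3 (-1.32, adjusted p = 5.69e-07) fell in KO/PEG. Under NTZ they were at -0.075 and 0.42 and were not called.

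Markers of the muscle wall moved in the same comparison. The summed CPM of 10 smooth muscle markers had a median of 2081 in KO/PEG (1189 to 4217) and 4083 in KO/NTZ (2463 to 5294), against 4343 in WT/PEG (2958 to 4927) and 4828 in WT/NTZ (3410 to 5829). In KO/PEG against WT/PEG, 9 of these 10 markers and all 8 enteric neuron and glia markers were called lower, where 37.1% of all genes were. In KO/NTZ against KO/PEG, where 5.71% of all genes were called in either direction, 5 of the 10 were higher and 0 lower, among them Smtn (0.86, SE 0.14, adjusted p = 0.000103) and Acta2 (0.76, SE 0.14, adjusted p = 0.000505). Of 8 enteric neuron and glia markers 3 were higher, with Sox10 at 1.57 (SE 0.22, adjusted p = 5.42e-06), whereas 2 of 7 fibroblast markers were lower, with Col1a1 at -0.63 (SE 0.14, adjusted p = 0.00395). The part of muscle content in the Barx1 difference was not tested. Per 1000 CPM of the smooth muscle sum, Barx1 had a median of 8.05 CPM in KO/PEG (3.504 to 14.9) and 7.92 CPM in KO/NTZ (6.52 to 16.4). The KO groups overlap in this ratio, and they also overlap in Barx1 itself. The ratio was 4.66 in WT/PEG (3.04 to 5.50) and 4.23 in WT/NTZ (3.58 to 5.50). Barx1 is in the shortest length class, which had a median of 0.71 in KO/PEG against WT/PEG. The part of the length gradient in the genotype difference of this ratio was not tested.

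**Figure D5:**
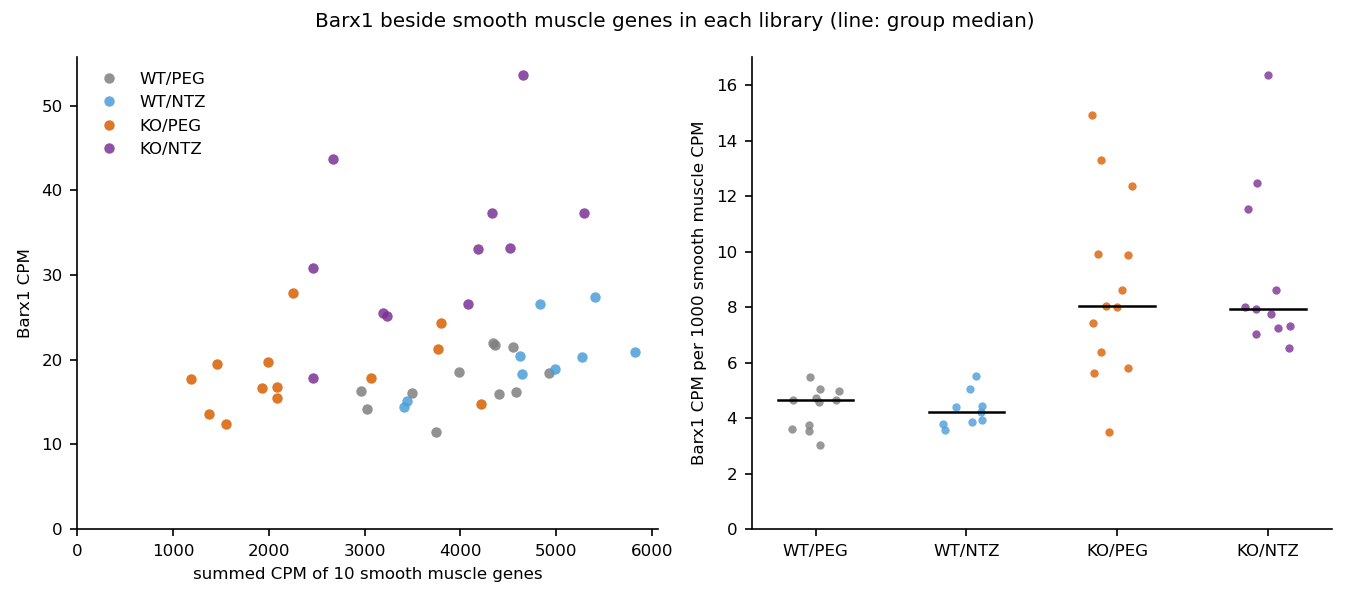
Left, Barx1 CPM against the summed CPM of 10 smooth muscle genes, 1 point per library. Right, Barx1 CPM per 1000 CPM of that sum with the group median as a line, at 8.05 in KO/PEG, 7.92 in KO/NTZ, 4.66 in WT/PEG and 4.23 in WT/NTZ. All KO libraries but 1 lie above every WT library in this ratio, and the KO groups overlap. The part of the length gradient in the ratio was not tested.

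Within groups, Barx1 was not clearly tied to the muscle sum. The Pearson r was 0.34 in KO/PEG and 0.50 in KO/NTZ, and 0.51 in WT/PEG and 0.77 in WT/NTZ. None passed a permutation test after adjustment over the 16 relations (adjusted p = 0.403, 0.349, 0.349 and 0.143). In the same order, Spearman's rho was 0.37, 0.56, 0.35 and 0.73 (adjusted permutation p = 0.436, 0.309, 0.48 and 0.246). Without the 2 farthest libraries r was 0.43, 0.27, 0.50 and 0.23, so that in WT/NTZ it rested on those libraries. Relations with the neuron and glia sum and the fibroblast sum did not pass either, with adjusted permutation p for r from 0.228 to 0.85.

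The genes most like each factor were sought by Pearson's r of log2 CPM deviations from the group means over the 44 libraries, which share depth and the length gradient. Barx1 was most like Plekho1 (r = 0.84), Psd (0.75) and Fxyd1 (0.73). Sox2 was most like Fmnl2 (0.82), Foxa1 (0.80) and Kitl (0.79), and Foxa1 most like Kitl (0.92), Galnt4 (0.91) and Crot (0.91). Gata6 was most like Dcun1d4, Mtmr6 and Ttc30b (0.90 each), and Gata4 most like Urgcp (0.77), Ogdh (0.76) and Gpt (0.75). The genes nearest to Foxa2 were Cds1 (0.79), Trim50 (0.75) and Stk39 (0.74). For Sox9 they were Glrb (0.81), Pigb (0.81) and Spdef (0.80), and for Hnf4a Cttn (0.79), C77080 (0.77) and Tmem127 (0.77).

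Among the factors themselves, Foxa1 varied with Gata6 (r = 0.83) and with Sox2 (0.80) over the 44 libraries, and Gata4 with Foxa2 (0.61). For Foxa1 and Sox2, r was 0.86 in the 24 KO libraries and 0.23 in the 20 WT libraries. For Gata4 and Foxa2 it was 0.63 and 0.65, so that this pair varied alike in both genotypes. Barx1 ran against Foxa1 in KO libraries (r = -0.77) and had r = 0.0036 in WT libraries. The paralogs Foxa1 and Foxa2 had an r of -0.0019. These are descriptions, and the KO libraries differ in length slope.

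Animal numbers differed between the KO groups, since 10 of 11 KO/NTZ libraries but 6 of 13 KO/PEG libraries had a number below 100. Within KO/PEG, Sox2 was 19.5 ± 6.79 CPM in the 6 libraries numbered below 100 and 12.5 ± 4.77 CPM in the other 7. Sox9 was 77.5 ± 31.6 and 123 ± 53.6 CPM, and Barx1 17.1 ± 3.81 and 19.3 ± 4.73 CPM. Among KO libraries numbered below 100, the log2 fold change of Barx1 under NTZ was 0.95 and that of Sox2 -0.19.

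Transcripts within a gene were compared where at least 2 of them held 10% or more of its counts, which was the case for Gata4 and Hnf4a. Gata4-203, a transcript confined to the 3′ part of the gene, held 69.3% of the Gata4 counts in WT/PEG (range 60.4 to 75.7) and 85.5% in KO/PEG (76.4 to 92.5). The groups did not overlap, and the difference of 16.2 percentage points passed a two-sided permutation test (adjusted p = 8e-05 over 8 tests). Gata4-202 held 14.7% and 8.92% (adjusted permutation p = 0.00012). Under NTZ in KO mice, the shares of Gata4-203 and Gata4-202 were 89.2% and 7.28% and did not pass (adjusted permutation p = 0.0828 and 0.127). Fragments annotated at the 5′ side lost share too: Gata4-204 held 6.53 ± 1.38% in WT/PEG, 1.36 ± 0.994% in KO/PEG and 0.586 ± 0.550% in KO/NTZ. Hnf4a-205, from the upstream start of Hnf4a, held 2.70 ± 0.459%, 0.817 ± 0.702% and 0.257 ± 0.318%. KO libraries also had the steeper length slopes, and the part of that gradient in these shares was not tested.

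The split between Hnf4a-201 and Hnf4a-202 is not interpreted. The 2 transcripts share 4356 bases, and Hnf4a-202 has only 1 more base at the 5′ end and 5 more at the 3′ end. Hnf4a-201 held 50.04% of the counts in WT/PEG and 7.96% in KO/PEG (adjusted permutation p = 0.00012), and its share of the pair ranged from 0 to 79.8% over the libraries. The counts of Hnf4a as a sum do not depend on this split.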

How the data were processed

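Messenger RNA of the gastric corpus was sequenced as single reads from a stranded library kit. Per the labels and the study's methods, the authors estimated counts per transcript with kallisto 0.42.4 on GRCm38, and deposited these estimated counts, without normalization, for 94080 transcripts in 44 libraries. The strand setting of kallisto is not given in the sources used here. The study used sleuth, whose output was not used here.

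Of the transcripts, 92372 matched GENCODE M21 and were summed to 31517 genes. The other 1708 held 0.329% to 1.305% of a library's counts. Sums were rounded. Genes with low counts were left out (filterByExpr, minimum count 10, minimum total 15), and 14911 were tested with edgeR 4.0.16 in R 4.3.3 (TMM, quasi-likelihood test, 1 mean per group, all 44 libraries, Benjamini-Hochberg adjustment over all genes, threshold 0.05). Of the 10 members 8 passed. The 95% intervals are the estimate and its SE with the residual degrees of freedom. TPM used annotated lengths. For the length slope, 9 tested genes without a length were given the median. Permutation tests used 100000 resamples and are two-sided. Promoters are from RefSeq (GRCm38.p6), in which 6 of the 10 members were matched. Scripts were tested on simulated data.

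The members, gene lists and comparisons were chosen with earlier results of these data known. Named genes are the members, the 3 most alike genes of each, up to 4 genes with the smallest p per list and comparison, and others of the lists chosen after their values were seen. Alternatives were RLE scaling, DESeq2 1.42.0, limma-trend (limma 3.58.1), other filters, only the groups compared, the WT/PEG pair with a shared number summed, omission of the libraries numbered 110, only KO animals numbered below 100, protein-coding transcripts only, and each library left out. Fits with the length slope as a covariate, with the length trend removed, and without 11 KO libraries of slope below -0.5 (5 KO/PEG and 6 KO/NTZ) were chosen after the data were examined.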

Additional observations from a re-analysis of the deposited data

How the results depend on the processing

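The counts of members called stayed within 1.5 times of the reported ones in every alternative. They were 5 to 8 for KO/PEG against WT/PEG, 4 to 7 for KO/NTZ against WT/NTZ without Barx1, and 0 for both NTZ comparisons and for their difference. With each library left out in turn, the first count was 6 throughout and the second 5 or 6.

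For Barx1 in KO/PEG against WT/PEG, the log2 fold change was near 0 and changed sign to -0.0017 without the libraries numbered 110, -0.032 with only KO animals numbered below 100, -0.073 without the KO libraries of slope below -0.5, -0.40 with the length trend removed and -0.77 with the slope as a covariate. With each library left out it was between -0.0023 (without KO/PEG replicate 110) and 0.11. With the slope as a covariate, Gata6 (-0.15) and Sox9 (0.26) were no longer called. Hnf4a became called with only KO animals numbered below 100 (0.22), protein-coding transcripts only (0.19), the length trend removed (0.56) and without the KO libraries of slope below -0.5 (0.23). In KO/NTZ against WT/NTZ, the values beside that comparison apply, Gata4 was not called without the KO libraries of slope below -0.5 (-0.28), and Hnf4a became called with protein-coding transcripts only (0.23), with the length trend removed (0.58), and without WT/NTZ replicate 86 or 99 (0.196 and 0.202). In KO/NTZ against KO/PEG, none of the uncalled factors became called. With only KO animals numbered below 100, Sox2 turned to -0.19 and Gata4 to 0.15. Gata4 was at 0.037 without the KO libraries of slope below -0.5, and Sox9 was between -0.046 (without KO/NTZ replicate 37) and 0.199 with each library left out. The share of Gata4-202 turned from -1.64 to 0.097 percentage points when medians were compared. The cause of these changes was not tested.

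No paired analysis was possible because the groups compared share fewer than 2 animal numbers. Dixon's test, which applies to groups of 4 to 10 libraries, marked none of the 8 factors in WT/NTZ. Depth limits Cdx1 and Cdx2, which were at or under 3 counts in each library. The genotypes hardly overlap in slope, so the covariate fit has little to draw on.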

Other observations

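Endocrine markers of the corpus changed in both KO comparisons. Of 5 tested, 3 rose in KO/PEG against WT/PEG: Chga, of endocrine granules (log2 fold change 1.63, adjusted p = 6.89e-12 by edgeR), Hdc, the histamine-forming enzyme of ECL cells, from 26.5 to 69.7 CPM (1.39, adjusted p = 2.65e-07), and Ghrl (0.43, adjusted p = 0.00341). Sst, for somatostatin, fell (-1.01, adjusted p = 0.000823). Under NTZ in KO mice, Chga (-1.22, adjusted p = 7.93e-07), Hdc (-1.97, adjusted p = 1.05e-07) and Slc18a2 (-0.79, adjusted p = 0.0164) fell, and Sst rose (0.89, adjusted p = 0.0361). Of all genes, 5.71% were called under NTZ in KO mice.

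Of 6 immune markers, 4 rose in KO/PEG, among them Csf1r (0.85, adjusted p = 5.85e-07) and Cd68 (0.97, adjusted p = 1.13e-06) of macrophages, and Lyz2 fell under NTZ in KO mice (-0.79, adjusted p = 0.0292). Of the mucous and pit cell markers, Muc6 rose (3.86, adjusted p = 1.4e-09), while Gkn1 (-1.31, adjusted p = 7.86e-07), Gkn2 (-1.31, adjusted p = 4.13e-06) and Muc5ac (-1.76, adjusted p = 0.000162) fell in KO/PEG. Afp, a fetal liver and gut product, rose from 0.955 to 13.05 CPM (3.75, adjusted p = 2.6e-13), while Ins2 had 0 CPM in every group.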
